A study of Mus musculus with 6 samples.

Results

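Myt1, Myt1l and St18, the 3 mouse genes of the MYT1 family of zinc-finger transcription factors, were followed in cultured cortical neurons from WT and Fmr1-KO mice. They are the 3 rows carrying these gene names among 55367 rows of the count table, and all 3 had enough counts to be tested. They were chosen by name with their counts in these libraries known, Myt1 and St18 having been seen higher in Fmr1-KO, so their differences between genotypes are given as a description, without a test. RNA-seq was carried out on 3 WT and 3 Fmr1-KO libraries of polyA RNA. All came from C57BL/6J pups at postnatal day 1 (P1), and the cortical cells spent 2 days in culture. Fmr1 encodes FMRP, an RNA-binding protein whose loss causes fragile X syndrome. WT pups of the same strain served as controls, and the labels list no other allele or agent. According to the methods, ACSA-2-positive astrocytes and myelin were removed with antibody-coated beads before plating. The study describes its triplicate samples as derived independently of each other. Whether that means separate pups, litters or cultures, and whether pups were pooled, is not given in the sources used here, so P values measure the spread between these libraries.

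MYT1 family proteins carry clusters of C2HC zinc fingers, which bind DNA with an AAGTT core, and they recruit histone deacetylase complexes. MYT1L is made in postmitotic neurons, where it represses genes of other cell fates and of Notch signaling, and it is used together with POU3F2 to turn fibroblasts into neurons. MYT1 was first found through its binding to the proteolipid protein gene promoter and is known from neural progenitors and oligodendrocyte precursors. ST18, also called MYT3, is known from neurons of the ventral forebrain and from pancreatic islets.

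In GRCm38 (GENCODE M21) all 3 members are protein-coding and read from the plus strand. Myt1 (ENSMUSG00000010505.16) lies on chromosome 2 from 181763332 to 181827797, Myt1l (ENSMUSG00000061911.15) on chromosome 12 from 29528384 to 29923213, and St18 (ENSMUSG00000033740.17) on chromosome 1 from 6487231 to 6860940. Myt1 has 12 annotated transcripts, Myt1l 11 and St18 13. The class of transcripts predicted to undergo nonsense-mediated mRNA decay (NMD) holds 1 transcript of Myt1, 1 of St18 and 0 of Myt1l. All 3 gene names stand in the list of NMD targets that the study drew up in N2A cells, a mouse neuroblastoma line. That list holds 1027 names, of which 1009 were among the 16976 genes tested here. Gene counts sum all annotated transcripts of a gene and do not separate them.

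The feature that defines the family can be read from the coding sequences. In the transcript of each gene with the longest coding sequence, the codon pattern of a C2HC finger occurred 7 times in Myt1, 6 times in Myt1l and 6 times in St18. Among the most alike fingers between members were finger 2 of Myt1, finger 2 of Myt1l and finger 1 of St18, each encoded within 1 exon. They are shown because they carry the shared DNA-binding unit. Capitals mark the codons of the conserved cysteines and histidines (in the order Cys, Cys, His, His, Cys) by which the fingers were found, and not all of these residues bind the zinc ion.
Myt1 finger 2, chr2:181801049-181801123, plus strand, exon 8: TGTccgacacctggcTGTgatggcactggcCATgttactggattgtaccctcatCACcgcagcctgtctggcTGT
Myt1l finger 2, chr12:29832320-29832394, plus strand, exon 11: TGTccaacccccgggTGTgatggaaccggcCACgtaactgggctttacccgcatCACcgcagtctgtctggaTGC
St18 finger 1, chr1:6807575-6807649, plus strand, exon 7: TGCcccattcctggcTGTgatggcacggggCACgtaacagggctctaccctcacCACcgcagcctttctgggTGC
Over these 75 bases Myt1 and Myt1l were identical at 60 (80.0%), and St18 was identical to each of them at 59 (78.7%). Across whole transcripts the longest stretch shared without a mismatch by any pair of members was 17 bases, much less than a read, so reads of one member are unlikely to have been counted for another.

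Myt1 was also in the RT-qPCR panel of the study, and the place of its primers shows which part of the transcript that assay read. All are written in lower case, 5′ to 3′.
Myt1 S, chr2:181820054-181820073, plus strand: atgcctctcacaggagtgct
Myt1 AS, chr2:181821948-181821967, minus strand: tttccagcaaaggttgctct
Myt1 pre-AS: ccctgattgttgttgacgtg
The S primer lay in exon 19 of the transcript with the longest coding sequence, with all 20 bases inside finger 6. The AS primer lay in exon 20, with 3 bases between it and the end of finger 7. The mRNA product is therefore 211 bases long, against 1914 bases on the genome, and holds all of finger 7. The pre-mRNA assay uses the same S primer with pre-AS, which matched 0 annotated transcripts. The study names Myt1 among targets that rose in abundance in Fmr1-KO before being normalized to a still larger rise of their pre-mRNAs. The counts below are summed over all exons of Myt1 and do not measure what the RT-qPCR measured.

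Total counts ran from 30348556 to 35126207 per library, and 16976 genes were tested. Fmr1, the targeted gene, went down from 113.4 ± 4.50 CPM in WT to 57.4 ± 3.67 CPM in Fmr1-KO (SD, n = 3 each), with a log2 fold-change of -0.98 (SE 0.04; adjusted P 2.25e-13 by edgeR's quasi-likelihood test). Its RNA was thus reduced and not absent in the libraries labelled Fmr1-KO. CPM are counts scaled to library size after TMM normalization. Of all genes tested, 42.6% had an adjusted P under 0.05, with 20.7% higher and 21.9% lower in Fmr1-KO. The libraries of the genotypes did not overlap for 51.7% of tested genes, which were higher in Fmr1-KO for 25.4% and lower for 26.3%. Separation of the genotypes was therefore common, and nothing about the members is read from it.

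Myt1 was higher and Myt1l lower in Fmr1-KO relative to WT, and St18 was higher at a much lower level. Myt1 had 3253, 2929 and 3105 counts in WT replicates 1, 2 and 3, and 4181, 3966 and 4413 counts in the Fmr1-KO replicates. On the CPM scale these were 93.6, 88.6 and 93.0 in WT and 128.6, 129.6 and 126.8 in Fmr1-KO. The genotypes did not overlap, and the lowest Fmr1-KO library stood well above the highest WT library. The mean level was 91.7 ± 2.74 CPM in WT and 128.3 ± 1.38 CPM in Fmr1-KO (SD, n = 3 each). This is 39.8% more, with a log2 fold-change of 0.48 (SE 0.03). Of all tested genes, 6.46% had an increase at least as large. In bulk RNA, more or fewer cells of a type and more or less RNA per cell cannot be told apart, here and in all values that follow.

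Myt1l, the member of postmitotic neurons, had 8964, 8661 and 8244 counts in WT and 7322, 6732 and 8106 in Fmr1-KO. Its levels were 257.9, 262.0 and 247.0 CPM in WT and 225.2, 219.9 and 233.0 CPM in Fmr1-KO. Each Fmr1-KO library was lower than each WT library, and the gap between the nearest libraries, Fmr1-KO replicate 3 and WT replicate 3, was about the size of the spread within a genotype. The mean was 255.6 ± 7.72 CPM in WT and 226.0 ± 6.58 CPM in Fmr1-KO (SD, n = 3 per genotype). The log2 fold-change was -0.18 (SE 0.03), which is a level of 0.884 times that in WT. A decrease at least as large was found in 21.8% of tested genes.

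St18 had the fewest reads, with 392, 329 and 355 counts in WT and 443, 498 and 480 in Fmr1-KO. These correspond to 11.3, 9.95 and 10.6 CPM in WT and to 13.6, 16.3 and 13.8 CPM in Fmr1-KO. The genotypes again did not overlap, but Fmr1-KO replicate 2 stood above the other two. The mean was 10.6 ± 0.664 CPM in WT and 14.6 ± 1.48 CPM in Fmr1-KO (SD, n = 3 each), and the log2 fold-change was 0.45 (SE 0.08). An increase at least as large was found in 7.32% of tested genes. Counting error alone was 4.48% to 5.51% of the level of St18 in a library, against 1.06% to 1.85% for Myt1l and Myt1. Without Fmr1-KO replicate 2 the log2 fold-change of St18 was 0.37.

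**Figure D1:**
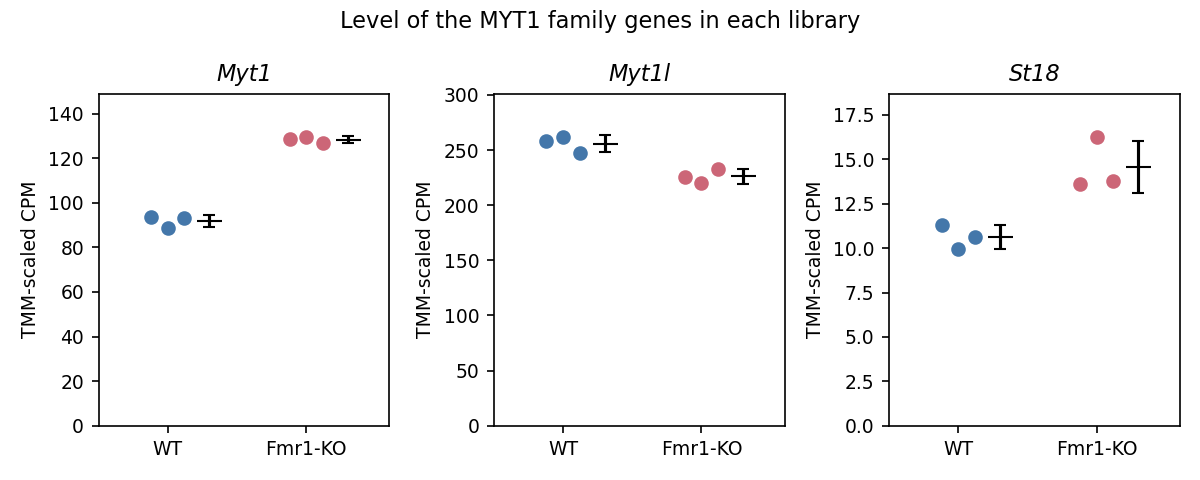
TMM-scaled CPM (y axis, from 0) of Myt1, Myt1l and St18 in the 3 WT and 3 Fmr1-KO libraries; points are libraries, and the black marks give mean ± SD (n = 3). For Myt1 (91.7 against 128.3 CPM) and St18 (10.6 against 14.6 CPM) every Fmr1-KO point lies above every WT point, and for Myt1l (255.6 against 226.0 CPM) every one lies below.

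The members were then compared with each other per gene length, as RPKM, the CPM divided by the length in kilobases. With the length of all annotated exons together (7191, 14018 and 6464 bases for Myt1, Myt1l and St18), WT levels were 18.2 ± 0.551 RPKM for Myt1l, 12.8 ± 0.381 for Myt1 and 1.64 ± 0.103 for St18 (SD, n = 3). The 3 sets of WT libraries did not overlap. In Fmr1-KO the levels were 17.8 ± 0.191 RPKM for Myt1, 16.1 ± 0.469 for Myt1l and 2.25 ± 0.229 for St18 (SD, n = 3), again without overlap. Myt1 and Myt1l thus exchanged places on this scale.

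The order of the leading pair in Fmr1-KO depended on the length used. Per base of the longest transcript (5509, 7202 and 5892 bases), Myt1l stood above Myt1 in both genotypes, at 35.5 ± 1.07 against 16.7 ± 0.498 RPKM in WT and 31.4 ± 0.913 against 23.3 ± 0.250 RPKM in Fmr1-KO (SD, n = 3). St18 was the lowest on either scale. The ratio of Myt1l to Myt1 per exon length was 1.36 to 1.52 in the WT libraries and 0.871 to 0.942 in the Fmr1-KO libraries, and per longest transcript it was 2.03 to 2.26 and 1.30 to 1.41. The relative shift of the ratio between genotypes is the same under either length by construction, as each length is constant for its gene and cancels. Myt1 made up 39.1% ± 1.17 of the summed family RPKM per exon length in WT and 49.3% ± 0.698 in Fmr1-KO, and Myt1l 55.9% ± 1.39 and 44.5% ± 1.18 (SD, n = 3 per genotype). The sum itself was 32.6 ± 0.482 RPKM in WT and 36.2 ± 0.171 RPKM in Fmr1-KO (SD, n = 3 per genotype). The shares and the sum hold for exon length only. Per longest transcript they were not computed, and there Myt1l stood above Myt1 in both genotypes.

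**Figure D2:**
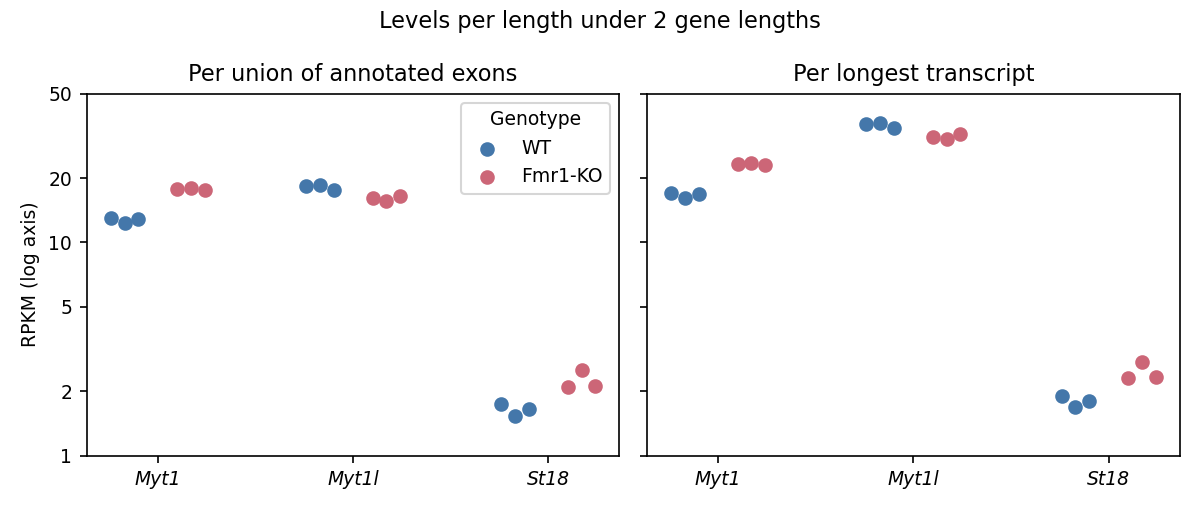
RPKM of the 3 members (log axis) in each library, divided by the union of annotated exons (left) or by the longest transcript (right); each point is a library. St18 lies lowest in both panels, while in Fmr1-KO the mean of Myt1 is above that of Myt1l on the left (17.8 against 16.1 RPKM) and below it on the right (23.3 against 31.4 RPKM).

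Gene models that overlap a member were found for Myt1l only, and both lie on the opposite strand. Gm20208, a processed transcript on chromosome 12 from 29526906 to 29534891, shares 633 exon bases with Myt1l. It had 15 to 25 counts in a library, with 0.634 ± 0.106 CPM in WT and 0.579 ± 0.183 CPM in Fmr1-KO (SD, n = 3 per genotype). C630031E19Rik, an antisense gene from 29675628 to 29686445, shares 0 exon bases and had 0 to 3 counts. Reads were counted by strand, and both neighbours had far fewer counts than Myt1l in every library.

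For each member, the most similar patterns were sought among 10762 other genes whose mean reached 10 CPM. Likeness was the root-mean-square (RMS) difference of log2 CPM over the 6 libraries, after subtracting each gene's own mean; 0 would be an identical pattern. The nearest genes to Myt1 were Tmem131l (0.022), Vit (0.024), Sfrp1 (0.024), Arhgap11a (0.024) and Hdac7 (0.027), against a median of 0.249 over all genes compared. Sfrp1 encodes a secreted Wnt antagonist, Arhgap11a a GTPase-activating protein of dividing progenitors, and Hdac7 a histone deacetylase. The nearest to Myt1l were Celf6 (0.013), Icmt (0.013), Cycs (0.014), Dhrs13 (0.016) and Dpysl2 (0.017), with a median of 0.120. Celf6 encodes an RNA-binding splicing regulator, Cycs cytochrome c, and Dpysl2 the neurite protein CRMP2. The nearest to St18 were Cfap46 (0.040), Acvr2b (0.041), Efcab2 (0.046), A230057D06Rik (0.049) and Fgd4 (0.052), with a median of 0.253, and like St18 these peaked in Fmr1-KO replicate 2.

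The pattern of St18 differed from that of Myt1 by 0.084, and 3.17% of the other genes were nearer to Myt1 than St18 was. The pattern of Myt1l differed by 0.336 from Myt1 and by 0.337 from St18. More than 80% of genes were nearer to either of them than Myt1l was, 82.6% for Myt1 and 83.0% for St18. Genes near a member share its libraries and its difference between genotypes, so nearness is a description of 6 libraries.

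**Figure D3:**
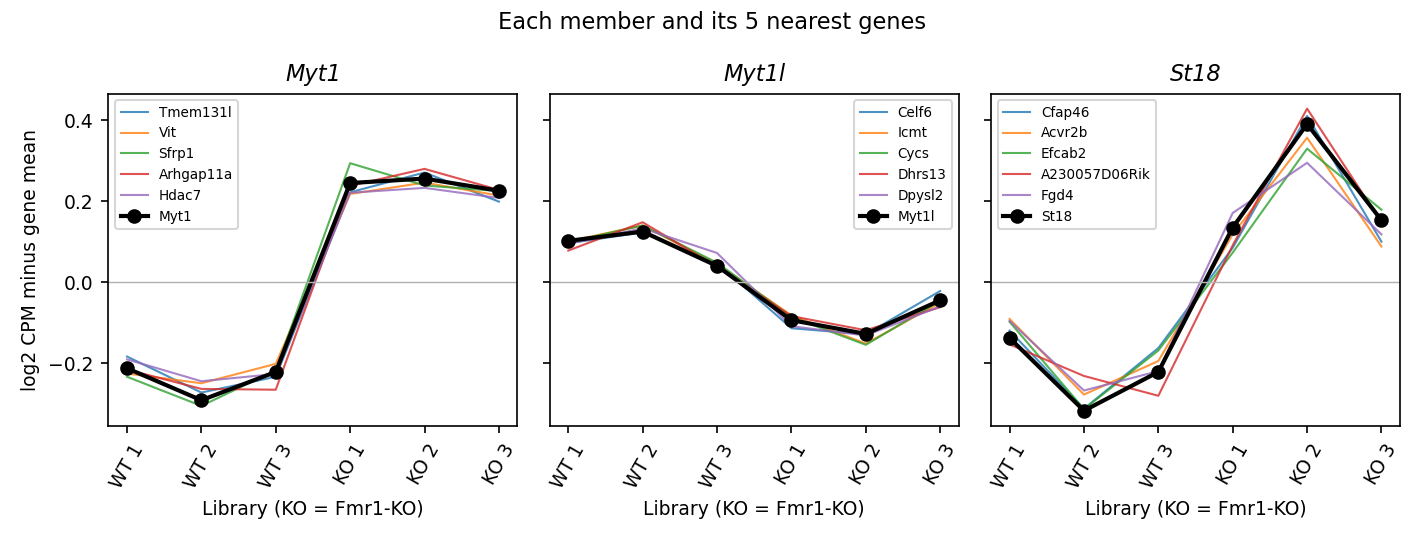
Log2 CPM minus the gene's mean over the 6 libraries (y axis) for each member (black) and the 5 genes nearest to it (coloured), with libraries on the x axis; lines only join values of the same gene. Myt1 steps up between genotypes with little spread, Myt1l steps down, and St18 and its nearest genes are highest in Fmr1-KO replicate 2 (St18 at 0.391).

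Genes around the family in its known pathways were examined next. The order was corepressor partners, proneural and neuronal-conversion factors, and genes of Notch signaling with the Hes and Id families. Whether the listed genes act on the members or are repressed by them was not tested. For these genes the test between genotypes is reported, and each adjusted P is from edgeR's quasi-likelihood test over all 16976 genes. Of 8 corepressor partners, 5 rose and 0 fell, against 20.7% and 21.9% of all genes; their median log2 fold-change was 0.13, against 0.01 over all genes tested. Rcor2, a subunit of the CoREST complex, rose from 47.4 ± 1.62 CPM in WT to 65.4 ± 1.63 CPM in Fmr1-KO (SD, n = 3 each; log2 fold-change 0.46, adjusted P 6.09e-09). Sin3a, a scaffold for histone deacetylases, rose by 0.21 on the log2 scale (adjusted P 5.42e-05), Rcor1 0.14 (adjusted P 0.0202), Kdm1a, the lysine demethylase LSD1, 0.13 (adjusted P 0.000970) and Hdac1 0.12 (adjusted P 0.0192). Sin3b (-0.08), Rcor3 (-0.02) and Hdac2 (0.00) did not pass the threshold. The number that rose was 3 without WT replicate 1 and 3 without Fmr1-KO replicate 3.

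Of 16 proneural factors and factors of neuronal conversion, 14 were tested, 9 rose and 2 fell, against 20.7% and 21.9% of all genes. Their median log2 fold-change was 0.19. The largest increases were those of Neurog2, from 1.66 ± 0.435 CPM in WT to 8.49 ± 1.73 CPM in Fmr1-KO (SD, n = 3 each; log2 fold-change 2.34, SE 0.17, adjusted P 3.52e-10), and Neurod4, from 0.513 ± 0.0794 to 1.78 ± 0.460 CPM (1.77, SE 0.25, adjusted P 5.39e-06). Both are basic helix-loop-helix factors that start neurogenesis, and both were at low levels. Insm1, a zinc-finger factor of intermediate progenitors, rose from 54.4 ± 4.06 to 106.8 ± 4.46 CPM (log2 fold-change 0.98, adjusted P 6.13e-13). The POU-domain factors Pou3f2 (log2 fold-change 0.56, adjusted P 5.36e-10) and Pou3f4 (0.47, adjusted P 6.48e-08) also rose. Pou3f2 is a partner of Myt1l in the conversion of fibroblasts. Ebf3 (-1.32, adjusted P 1.52e-06) and Pou3f1 (-0.64, adjusted P 5.36e-08) fell. The level of Ebf3 was low, at 3.06 CPM in WT and 1.23 CPM in Fmr1-KO. Neurog1 and Ebf2 had at most 2 and 16 counts in a library and were not tested.

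All 19 genes of Notch signaling and of the Hes and Id families were tested. Of these, 8 rose and 6 fell, against 20.7% and 21.9% of all genes, and the median log2 fold-change was 0.08. The genes that rose were ligands, receptors, the DNA-binding partner Rbpj, Hes6 and Id4. Dll3 rose by 0.42 on the log2 scale (adjusted P 1.42e-05), Notch2 0.35 (adjusted P 2.11e-07), Dll1 0.26 (adjusted P 0.000414), Hes6 0.24 (adjusted P 0.000212) and Dll4 0.21 (adjusted P 0.0449). The genes that fell were the ligand Jag2, Hey factors and Id genes. Id3 fell from 135.9 ± 7.14 CPM in WT to 72.1 ± 7.45 CPM in Fmr1-KO (SD, n = 3 each; log2 fold-change -0.91, adjusted P 1.50e-11), and Id1, Hey2, Hey1 and Jag2 had log2 fold-changes of -0.79 (adjusted P 1.72e-08), -0.52 (adjusted P 0.00320), -0.35 (adjusted P 2.64e-07) and -0.22 (adjusted P 0.00134). Hes1, the Notch effector repressed by MYT1L, was at 6.51 ± 0.525 CPM in WT and 7.46 ± 0.994 CPM in Fmr1-KO (log2 fold-change 0.20, adjusted P 0.126), and the log2 fold-change of Hes5 was -0.12 (adjusted P 0.275). Neither passed the threshold.

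**Figure D4:**
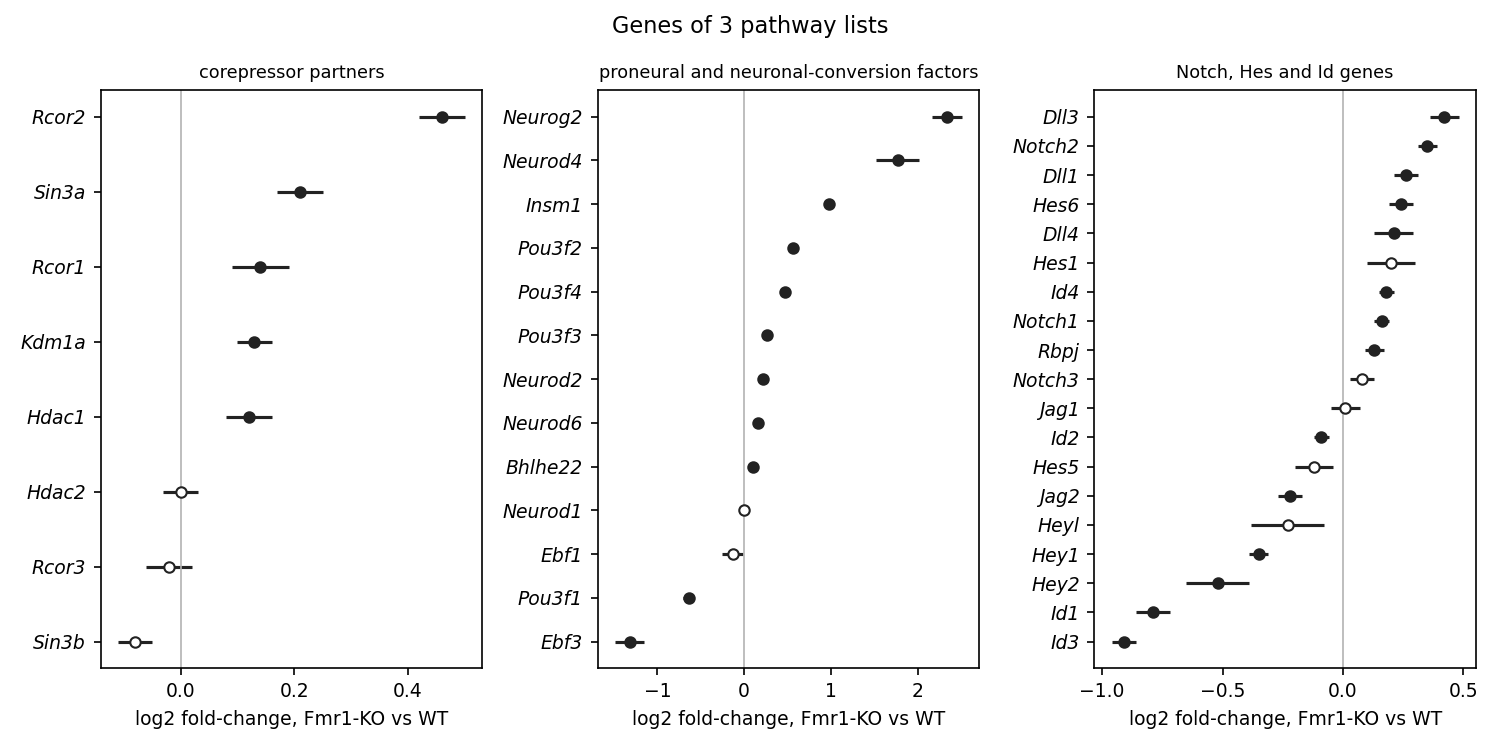
Log2 fold-change in Fmr1-KO relative to WT (x axis, above 0 is higher in Fmr1-KO) with its SE for tested genes of 3 lists; filled points had an adjusted P under 0.05 by edgeR and open points did not. Neurog2 stands highest at 2.34, while the Notch, Hes and Id list runs from Dll3 at 0.42 to Id3 at -0.91.

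Since the family marks particular cell types, markers of the cells that such a culture can hold were read beside it. All 10 neuron markers were detected and all 10 fell, against 21.9% of all genes. Their median log2 fold-change was -0.68, and their summed level was 3542.9 to 3613.5 CPM in WT and 2703.6 to 2854.0 CPM in Fmr1-KO. The most abundant were Map2 (log2 fold-change -0.11, adjusted P 0.00532), Tubb3 (-0.28, adjusted P 5.56e-06) and Stmn2 (-0.65, adjusted P 9.64e-13), and the largest decrease was that of the neurofilament gene Nefl (-1.90, adjusted P 2.10e-15). The decrease of Myt1l (-0.18) was smaller than the list median of -0.68 and than that of every listed neuron marker except Map2. The part of the neuron content in the level of Myt1l was not tested.

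Markers of dividing and newly committed cells moved the other way, where 20.7% of all genes rose and 21.9% fell. All 10 markers of proliferating cells rose (median log2 fold-change 0.66), and their sum was 554.0 to 602.0 CPM in WT and 955.7 to 1033.0 CPM in Fmr1-KO. Of 9 intermediate progenitor markers, 8 were tested, 7 rose and 0 fell (median 0.64), with a sum of 200.5 to 223.5 CPM in WT and 346.0 to 382.1 CPM in Fmr1-KO. Eomes rose most (2.79, adjusted P 2.35e-15), and 4 of these 9 markers are also in the list of proneural factors. Among proliferation genes Mki67 had the largest increase (1.09, adjusted P 8.39e-08) and Pcna the smallest of the 3 most abundant (0.42, adjusted P 9.73e-09). Myt1 and St18, at 0.48 and 0.45, were below the medians of both lists. The part of these cells in the levels of Myt1 and St18 was not tested.

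Myt1 differed in direction from the oligodendrocyte lineage, in which it is known to be expressed. All 12 markers of that lineage were detected and all 12 fell, against 21.9% of all genes. Their median log2 fold-change was -0.72, and their sums were 3256.1 to 3477.8 CPM in WT and 1894.9 to 2039.7 CPM in Fmr1-KO. The log2 fold-change of the precursor marker Pdgfra was -0.45 (adjusted P 1.45e-08), that of the myelin gene Mbp -0.92 (adjusted P 2.07e-13) and that of Mog -1.23 (adjusted P 4.49e-06). The level of Mog was low, at 2.52 CPM in WT and 1.07 CPM in Fmr1-KO. The part of oligodendrocyte lineage cells in the level of Myt1 was not tested. Of 16 markers of GABAergic interneurons, 6 rose and 7 fell, against 20.7% and 21.9% of all genes, with a median log2 fold-change of 0.00. Their sums were 1053.4 to 1078.7 CPM in WT and 1116.3 to 1197.6 CPM in Fmr1-KO. The most abundant gene of the list, Dlx1, was at 257.0 CPM in WT and 354.3 CPM in Fmr1-KO and weighs heavily in these sums. Markers of the ventral forebrain zone where St18 is known, and of the neurons it gives rise to, did not move in 1 direction. Nkx2-1 had 3.37 ± 0.299 CPM in WT and 4.88 ± 0.700 CPM in Fmr1-KO (SD, n = 3 per genotype; log2 fold-change 0.52, adjusted P 0.00189), whereas Lhx6 (-0.44, adjusted P 1.39e-06) and Lhx8 (-1.80, adjusted P 0.000138) fell. Lhx8 was near the floor, at 0.901 CPM in WT and 0.259 CPM in Fmr1-KO, with at most 32 counts in a library. Dlx1 (0.46, adjusted P 6.77e-10) and Dlx2 (0.59, adjusted P 3.01e-10), factors of immature interneurons, rose, and the neuropeptide genes Sst (-2.53, adjusted P 2.32e-16) and Npy (-2.43, adjusted P 5.16e-15) fell. The part of interneurons in the level of St18 was not tested.

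The remaining lists held other cells, and their counts stand against 20.7% of all genes higher and 21.9% lower. Astrocyte markers were still present after bead depletion, with Gfap at 2648.9 ± 67.0 CPM in WT (SD, n = 3). Among astrocyte markers, 1 of 8 rose and 5 fell (median -0.11), and sums were 5426.6 to 5541.3 CPM in WT and 4744.7 to 5155.9 CPM in Fmr1-KO. Of 8 microglia markers 0 rose and 7 fell (median -0.51), with sums of 200.9 to 214.5 and 132.9 to 147.2 CPM. Of 6 endothelial markers, 4 were tested, 2 rose and 1 fell, with sums of only 10.6 to 14.1 and 20.7 to 23.1 CPM. Most of the higher sum was that of Kdr, at 7.27 CPM in WT and 17.1 CPM in Fmr1-KO. Flt1 rose from 1.75 to 2.32 CPM, Cdh5 fell from 2.54 to 1.61 CPM, and Pecam1 did not pass the threshold. The number that rose was 1 without Fmr1-KO replicate 2, Fmr1-KO replicate 3 or any 1 WT replicate, and 0 fell without WT replicate 1. No list gene was at 0 in all libraries.

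**Figure D5:**
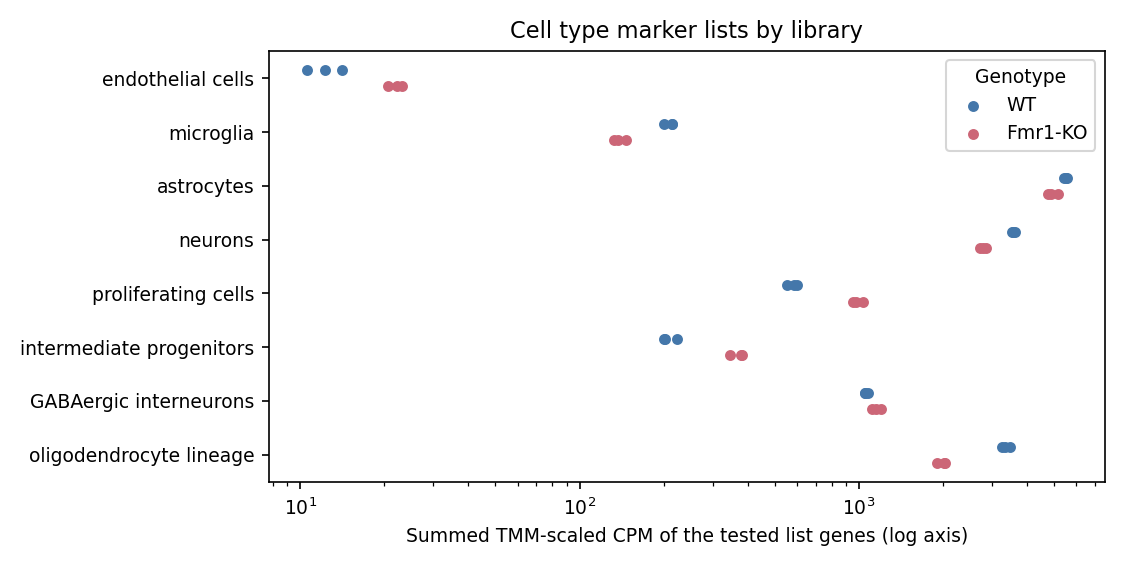
Summed TMM-scaled CPM of the tested genes of each marker list (log axis), with 1 point per library. The oligodendrocyte lineage, neurons, astrocytes and microglia sums are lower in every Fmr1-KO library. Those of proliferating cells (554.0 to 602.0 against 955.7 to 1033.0 CPM), intermediate progenitors, interneurons and endothelial cells are higher. In the interneuron list 6 genes rose and 7 fell, and most of the endothelial rise was that of Kdr.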

How the data were processed

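The authors deposited raw counts, not normalized, for each gene name in 6 libraries. Their methods state that reads were cleaned with FastP, mapped to GRCm38.p6 with STAR (2.7.6a in the submitters' processing notes) and counted over exons by featureCounts in reverse-stranded mode, with GENCODE annotation. Genotype and replicate number came from the sample titles. Counts were fitted with edgeR 4.0.16 in R 4.3.3: genes were kept by filterByExpr, libraries scaled by TMM, and genotype, the sole term, tested by the quasi-likelihood test on 2 sides. P values were adjusted by Benjamini-Hochberg over all 16976 genes. SE is the size of the log2 fold-change divided by the square root of F. DESeq2 1.42.0 was an alternative. The common biological coefficient of variation was 3.22%, and chi-square per degree of freedom between replicates of a genotype was 2.19 to 3.72, so no library was a copy of another.

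The members and gene lists were chosen with earlier results of these data known. Genes named are the members, Fmr1, models overlapping a member and the 5 genes nearest to each member. From each pathway list, up to 5 called genes with the largest change in each direction are named. From the marker lists, only some of the most abundant genes and of those with the largest changes are named, and none for microglia. Further list genes were named after their values were seen. Lengths, coordinates, transcripts and coding sequences came from GENCODE M21 (GRCm38), not the release used for counting, and promoters from RefSeq (GRCm38.p6). On simulated data for this comparison (16820 genes in the step, 200 changed by 1 log2 unit), 99.5% were recovered and 0.0481% of unchanged genes were called. Every simulated gene had the common dispersion, so these shares do not describe calls of smaller changes or of genes that vary more. The other alternatives were upper-quartile or RLE scaling, unscaled library totals, keeping every gene with a count, a stricter filter (means of 10 counts and 5 CPM), a replicate block and leaving out each library. Protein sequences were not used here. Of the pathway lists, 1 gene enters the counts and medians but is neither named nor plotted, as it is not reported here.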

Additional observations from a re-analysis of the deposited data

How the results depend on the processing

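No member changed direction in any alternative, and log2 fold-changes ran from 0.46 to 0.51 for Myt1, from -0.20 to -0.15 for Myt1l, from 0.37 to 0.50 for St18 and from -1.03 to -0.94 for Fmr1. Of 394 recomputed values, 375 stayed within the limit set for their kind and 19 moved further. For the members the limit was the spread between replicates, and for counts it was 1.5 times. Fmr1 had only to keep its direction and an adjusted P under 0.05. Per longest transcript, which is shorter than the union of exons, levels were 16.7 RPKM in WT and 23.3 RPKM in Fmr1-KO for Myt1, 35.5 and 31.4 RPKM for Myt1l, and 1.80 RPKM in WT for St18. With the stricter filter, which tests fewer genes, 1 corepressor partner (Sin3b) was called lower, 1 proneural factor was called lower, and 1 endothelial marker was called higher and 0 lower. DESeq2 and no filter also left 1 endothelial marker higher; the cause was not tested. Across the fits that each left out 1 library, corepressor partners called higher ran from 3 to 5, endothelial markers called higher from 1 to 2 and called lower from 0 to 1. No pairing by replicate number was visible. Deviations from the genotype mean correlated at -0.0668, 0.0593 and 0.0116 between libraries sharing number 1, 2 or 3. Whether libraries of the same number shared a culture or preparation is not given in the sources used here. With a replicate block 3488 genes were called higher and 3694 lower, against 3506 and 3725 without it, the log2 fold-changes were 0.48 for Myt1, -0.18 for Myt1l and 0.45 for St18, and no list count moved by more than 1.5 times. The median of all genes was 0.01 in the main comparison and at most 0.03 in any alternative, so scaling moved no direction of a member. At the depth of St18, differences of a few percent between libraries cannot be told from counting error.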

Other observations

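The AAGTT core bound by the family was looked for in RefSeq promoters (GRCm38.p6), taken from 250 bases before to 50 after each start site, as AAGTT or its reverse complement AACTT. It was found in 39.3% of all 32851 promoters, in 3 of 3 promoters of Myt1 and in 2 of 5 of Myt1l. Promoters of St18 and Hes1 were not analysed here. Among the pathway lists it was found in 2 of 8 promoters of corepressor partners, 3 of 13 of proneural factors and 5 of 18 of Notch, Hes and Id genes. At the most upstream start site of Myt1, 2 matches began 15 and 2 bases before the start, shown in capitals.
Myt1, chr2:181763302-181763349, plus strand: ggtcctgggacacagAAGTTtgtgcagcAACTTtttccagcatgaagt
A match of 5 letters is a description and says nothing about binding.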
